A study of Mus musculus with 5 samples.

Results

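The genes described here are 10 genes of the oligodendrocyte lineage and of myelin in the mouse cerebellum, Mobp, Mog, Mag, Cldn11, Gsn, Car2, Qdpr, Apod, Cd9 and Pdgfra. They were taken as the probes whose single gene symbol is one of these names, which gave 10 probes, 1 for each gene, of 897 probes in the table and of 787 with a single symbol, which name 773 genes. RNA of whole cerebellum was hybridised to arrays at embryonic day 18 (E18) and on days 7, 14, 21 and 56 after birth, written P7, P14, P21 and P56, to help learn which genes build this part of the brain. The sources used here give no strain, sex or number of animals, and no genotype or treatment is named for any age. Each age has 1 column, a mean of 2 array experiments, so no difference between ages has a replicate test, no p-value is given, and the small number of arrays limits the precision.

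Oligodendrocytes wrap axons in myelin, a stack of membrane held together by a small set of proteins. They arise from dividing progenitors that carry the receptor for platelet-derived growth factor, encoded by Pdgfra, and that lose this receptor as they mature. In the rodent cerebellum myelin is laid down in the white matter after birth, while granule cells are still being born and Purkinje cells extend their dendrites.

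Values were read as percentages of the probe's own highest age, averaged over 2 experiments, and cannot be set against another probe's level. Over the 897 probes the median was 84.5% at E18, 82.8% at P7, 55.5% at P14 and, at both later ages, close to 42%. The words rose and fell are kept for differences of 2-fold or more on the log2 of the percentage, with values under 1% set to 1%. Such a floor was needed for 2 of the 50 values of these genes, and a fold against it is a lower bound. Exactly 100 is reached at 1 age by 420 of the 897 probes, at 2 ages by 0, and at none by 477. This is how the values would look if each experiment had been scaled to its own highest age and the 2 were then averaged, though no source used here states it. On that reading a probe with no age at 100 peaked at different ages in the 2 experiments. It must then have at least 2 ages at 50% or more, which holds for 477 of 477 probes. That is no proof of the scaling, since the 6 of the 10 genes that reach 100 also have another age at 50% or more. The same reading sets limits on each single experiment, which are given below as limits and not as measured values. Whole tissue does not tell fewer cells of a type from less RNA per cell.

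The 10 genes fell into 3 shapes. Mobp, Mog, Mag, Cldn11 and Gsn were lowest at E18, highest at P14 or P21 and lower again at P56. Car2, Qdpr and Apod were highest at P56. Pdgfra and Cd9 were highest at P7 and lowest at P21. Of all 897 probes, 151 (16.8%) were highest at P14 or P21, 132 (14.7%) at P56 and 301 (33.6%) at P7. The name oligodendrocyte and myelin genes for the 10 therefore describes function and not 1 common time course.

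**Figure D1:**
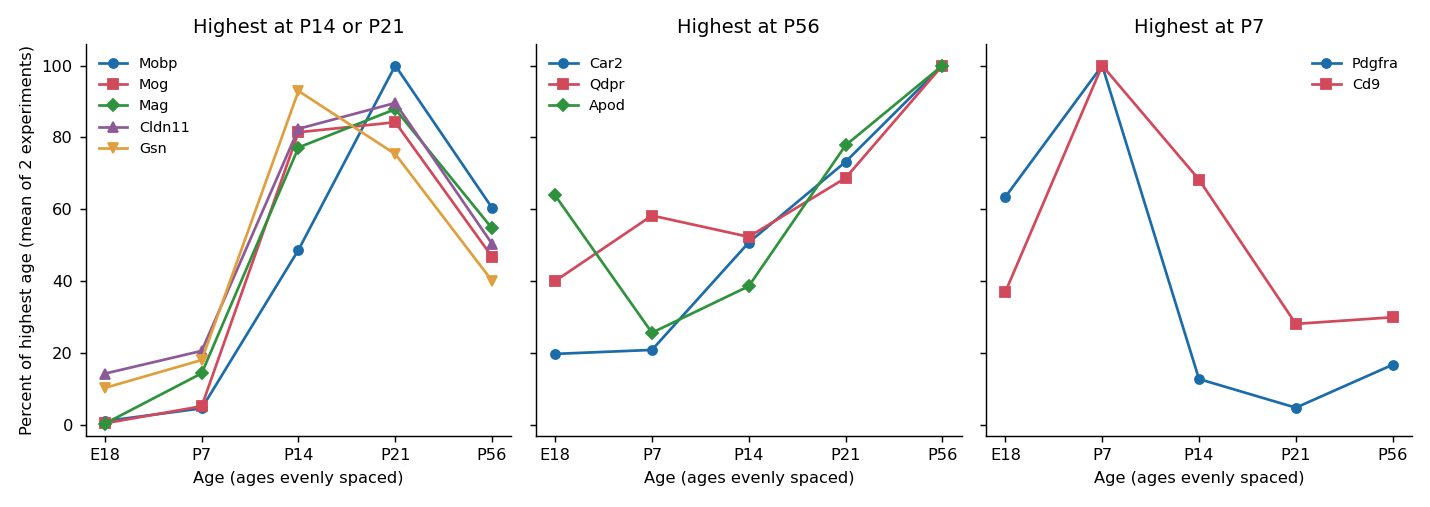
Percent of the highest age (y axis, mean of 2 experiments, no error available) over 5 ages spaced evenly on the x axis, with 1 line per gene. The 5 genes of the left panel stand between 0.38% and 14.3% at E18 and between 40.1% and 60.4% at P56, the 3 of the middle panel all reach 100% at P56, and the 2 of the right panel are at 100% at P7.

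Mobp, which encodes the myelin-associated oligodendrocyte basic protein of compact myelin, stood at 1.08% at E18, 4.63% at P7, 48.72% at P14, 100% at P21 and 60.4% at P56. Its 92.6-fold span at P21 against E18 was the 14th widest of 897 probes, whose median span was 3.14-fold. Mobp rose at each of the first 3 steps, by 4.29-fold at P7 against E18, 10.5-fold at P14 against P7 and 2.05-fold at P21 against P14. It stood at 100% at P21 in the mean, so on the reading above both experiments peaked there and neither exceeded 2.16% at E18, which puts the span at 46.3-fold or more in each.

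Mog encodes the myelin oligodendrocyte glycoprotein on the outer face of the sheath. It stood at 0.47% at E18, 5.22% at P7, 81.44% at P14, 84.23% at P21 and 46.78% at P56. Most of the change lay in 1 step, a 15.6-fold rise at P14 against P7 that 3 of the 897 probes exceeded. With P14 and P21 as its only ages above 50%, one experiment must have peaked at P14 with the other at 62.88%, and the other must have peaked at P21 with the first at 68.46%. On that reading the order of P14 and P21 differed between the experiments, while the span from E18 was 68.5-fold or more in each.

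Mag encodes the myelin-associated glycoprotein, an adhesion molecule on the membrane that faces the axon. It stood at 0.38% at E18, 14.38% at P7, 77.2% at P14, 87.88% at P21 and 54.7% at P56. At P7 against E18 it was at least 14.4-fold higher, and 1 of the 897 probes moved further upwards in that step. Mag and Mog were 2 of the 8 probes (0.892%) under 1% at E18. The others with a single symbol were Dao, Kcna1, Atp2a3, Gabra6 and Gabrd, of which Gabra6 and Gabrd encode GABA receptor subunits of granule cells and Kcna1 a potassium channel of axons.

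Cldn11, the gene of the claudin that forms tight junctions between the layers of myelin, stood at 14.3% at E18, 20.62% at P7, 82.4% at P14, 89.6% at P21 and 50.39% at P56. Relative to its own peak its start was higher than that of Mobp, Mog and Mag, and its span was 6.27-fold. Gsn encodes gelsolin, which cuts actin filaments and is made by oligodendrocytes and by many other cells. It stood at 10.32% at E18, 18.08% at P7, 92.93% at P14, 75.37% at P21 and 40.1% at P56. On the reading above the experiments peaked at P14 and P21, with the other experiment at 85.86% at P14 and at 50.74% at P21. Mog, Mag, Cldn11 and Mobp are 4 consecutive entries of the deposited table, numbers 566 to 569, while Gsn is entry 168.

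The start regions of the 3 genes with the widest spans, and of Pdgfra as the gene that ran the other way, are shown because Mobp, Mog and Mag rose over the same ages, each at least 46.8-fold at P56 against E18. They are RefSeq windows of 300 bases on GRCm38.p6, from 250 bases before the annotated start to 50 after it, 5′ to 3′ on the gene's strand. Of the 10 genes 9 matched the RefSeq set, with 13 windows in all (Car2 was not among them), and Mag has 3 windows of which 1 is printed. Capitals mark ACAAAG, the core bound by SOX factors, or its reverse complement CTTTGT, and CTGGCAC, a sequence described for the oligodendrocyte factor MYRF.
Mobp, chr9:120149492-120149791, + strand: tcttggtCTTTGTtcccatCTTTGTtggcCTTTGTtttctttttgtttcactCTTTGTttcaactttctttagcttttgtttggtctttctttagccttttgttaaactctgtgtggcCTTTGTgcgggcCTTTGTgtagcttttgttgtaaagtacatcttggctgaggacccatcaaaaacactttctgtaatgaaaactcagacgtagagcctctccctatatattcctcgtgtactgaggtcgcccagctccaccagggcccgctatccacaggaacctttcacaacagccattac
Mag, chr7:30914814-30915113, - strand: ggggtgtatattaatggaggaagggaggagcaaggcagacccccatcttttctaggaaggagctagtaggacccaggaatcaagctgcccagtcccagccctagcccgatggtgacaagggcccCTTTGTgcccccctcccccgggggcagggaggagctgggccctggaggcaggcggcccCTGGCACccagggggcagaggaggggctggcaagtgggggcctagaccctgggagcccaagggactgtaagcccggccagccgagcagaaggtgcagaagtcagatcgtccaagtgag
Mog, chr17:37023349-37023648, - strand: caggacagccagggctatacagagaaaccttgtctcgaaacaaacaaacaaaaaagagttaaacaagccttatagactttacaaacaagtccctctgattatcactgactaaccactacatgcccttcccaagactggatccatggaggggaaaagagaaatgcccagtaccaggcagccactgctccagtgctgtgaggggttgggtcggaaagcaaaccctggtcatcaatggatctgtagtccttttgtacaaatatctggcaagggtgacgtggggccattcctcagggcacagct
Pdgfra, chr5:75152001-75152300, + strand: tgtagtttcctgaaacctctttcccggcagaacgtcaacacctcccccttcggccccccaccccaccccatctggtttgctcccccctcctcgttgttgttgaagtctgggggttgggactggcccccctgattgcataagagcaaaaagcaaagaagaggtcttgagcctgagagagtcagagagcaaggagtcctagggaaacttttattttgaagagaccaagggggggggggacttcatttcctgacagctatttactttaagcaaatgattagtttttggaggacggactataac

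The Mobp window holds 6 matches to ACAAAG, all on the opposite strand, the first 243 and the last 120 bases before the start. Of 32851 windows 6147 (18.7%) hold at least 1 match, and 1 window, that of Mobp, holds 6 or more. The Mag window has 1 match to ACAAAG, 126 bases before the start, and 1 to CTGGCAC, 68 bases before it. CTGGCAC is found in 5.01% of windows, and a second Mag window that overlaps the first holds the same 2 matches. Both strands were searched, and 3 further motifs were used, CAGCTG (an E-box, in 16.3% of windows), GGGCGG (a GC box, 35.7%) and TATAAA (13.6%). None of the 5 motifs is found in the Mog and Pdgfra windows, and none overlaps another in the windows of Mobp and Mag. The GC box was found in windows of Gsn, Cldn11, Qdpr and Cd9, against 66.4% of the 839 windows of genes on the array, and TATAAA in none of the 13. CpG pairs numbered 5 in the Mobp window, 3 in that of Mog, 6 in the printed Mag window, 4 in that of Apod and 5 in that of Pdgfra, against a median of 21 over windows of genes on the array. The windows of Cldn11, Qdpr and Cd9 held 24, 23 and 18, and the 3 windows of Gsn 20, 2 and 16. A match is a description of letters and shows no binding.

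At P7 against E18 the first myelin genes rose while their levels were still far from their peaks. Higher by 2-fold or more at P7 were 4 of the 10 genes, against 5.80% of all probes, and 1 was lower, against 2.79%. Over all probes 52 were higher and 25 lower, but 44 and 60 with quantile normalization. Mobp, Mog and Mag rose, but at P7 they stood at 4.63%, 5.22% and 14.38%, so the rises lie between low values. With quantile normalization of the columns the differences of Mobp and Mog turned to -0.77 and -0.25 (log2), and with values under the 10th percentile (20.4%) set to it, those of all 3 were 0. Cldn11 (1.44-fold higher) and Gsn (1.75-fold higher) did not pass 2-fold. Cd9 was the fourth gene to rise and Apod the one that fell.

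At P14 against P7 each of the 5 genes highest at P14 or P21 rose, Mobp, Mog, Mag, Cldn11 and Gsn. They are called sheath genes here as a short name for this shape. The name takes in Gsn, which many other cells make, and leaves out Cd9. A rise by P21 is partly built in, since they were grouped by a highest age at P14 or P21. Cd9, also a membrane protein of myelin, went from 100% to 68.26%, within 2-fold. Of the 10 genes 6 rose, against 14.4% of all probes, and 1 fell, against 24.7%. The shares over all probes depend on the scaling: 129 probes were higher and 222 lower, but 238 and 105 with columns divided by their medians and 224 and 165 with quantile normalization, where 7 of the 10 genes rose under each, Apod being the one added. Beside Mog (15.6-fold) and Mobp (10.5-fold), Mag rose 5.37-fold, Gsn 5.14-fold, Cldn11 4-fold and Car2 2.43-fold. The median of the 10 was 1.64 (log2), and that of all probes -0.58. If each experiment lies between 0 and 100, means over 50 points apart leave no room for the 2 experiments to differ in direction. That was so for Mog, Mag, Cldn11 and Gsn among the 10, and for 7.80% of all probes upwards.

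**Figure D2:**
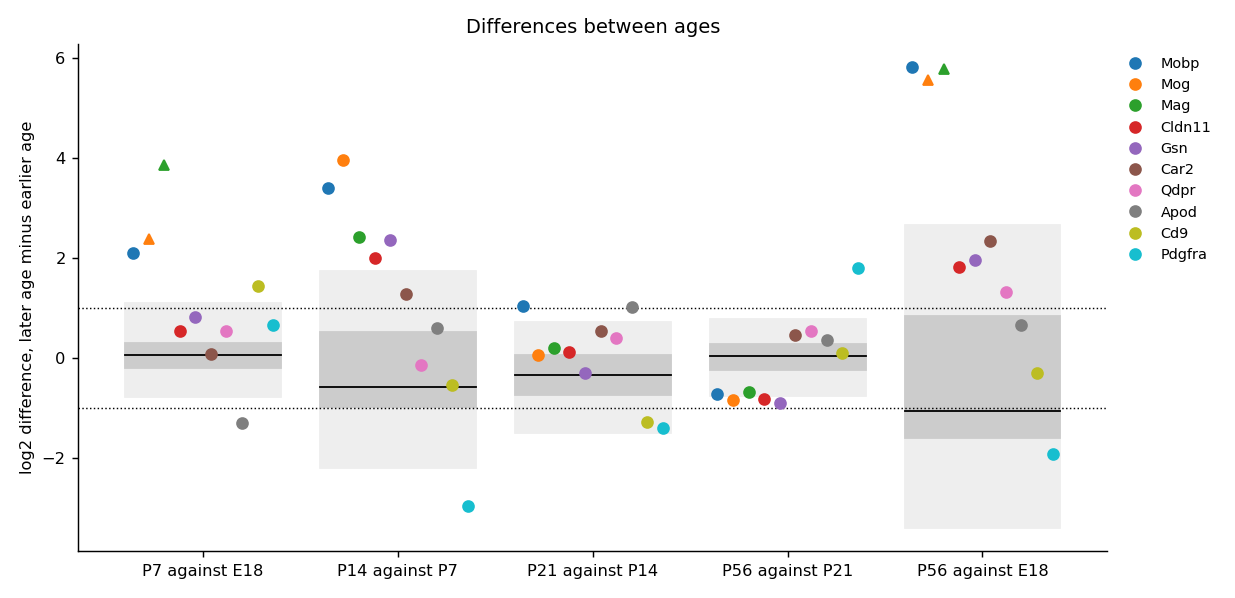
log2 differences between ages (later minus earlier, y axis) of the 10 genes in 5 comparisons. Dark and light boxes hold the middle 50% and the middle 90% of 897 probes, the black line is their median, dotted lines mark 2-fold, and triangles are lower bounds against a value under 1%. At P14 against P7 Mog, Mobp, Mag, Gsn and Cldn11 lie above the light box and Pdgfra below it.

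Linear interpolation placed the day at which a gene crossed the middle between its lowest and highest value at P10.1 for Gsn, P10.3 for Mag, P10.4 for Mog and P10.5 for Cldn11. All 4 lie between P7 and P14 and cannot be put in order, since these samples are 7 days apart. Mobp (P14.2), Car2 (P16.8) and Apod (P18.3) crossed it between P14 and P21, again with no order among them, and Qdpr at P22.5, after P21. The limits on single experiments bear on the intervals. Gsn, Mag, Mog and Cldn11 were under 50% of their peak at P7 and over 50% at P14 in both experiments, whereas Mobp, at a mean of 48.72% at P14, was under 50% at that age in at least 1. The intervals depend on the scaling: with quantile normalization Mobp and Car2 moved to P13.6 and P13.8, before P14, and Qdpr moved to P16.6, or to P19.0 with columns divided by their medians.

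Pdgfra, the receptor gene of oligodendrocyte progenitors, ran the other way. It stood at 63.47% at E18, 100% at P7, 12.78% at P14, 4.82% at P21 and 16.76% at P56. At P14 against P7 it fell 7.82-fold, and 15 of the 897 probes fell further. It dropped by 87.22 points, and 16.7% of all probes dropped by over 50. It lay at most at 25.56% in either experiment at P14 and at most at 9.64% at P21, so that its span was 10.4-fold or more in each. The drop of Pdgfra and the rises of Mog, Mag, Cldn11 and Gsn thus fell in the same interval in both experiments on the reading above.

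**Figure D3:**
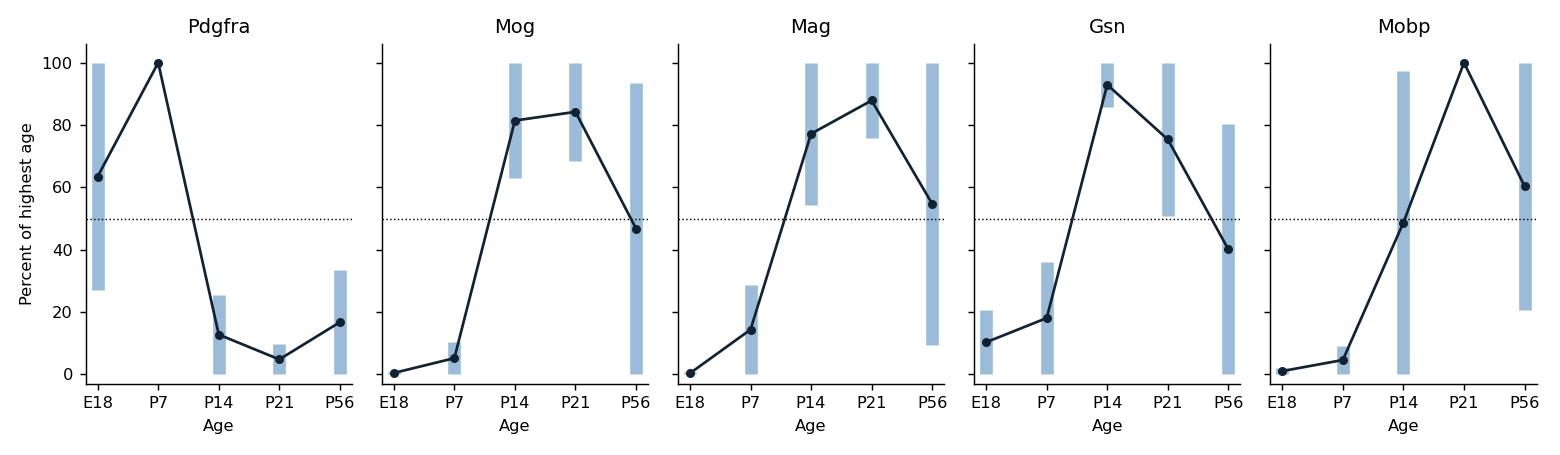
Percent of the highest age (y axis) for Pdgfra, Mog, Mag, Gsn and Mobp over 5 ages. Points are the deposited means, blue bars the range in which each single experiment must lie if both are between 0 and 100, and the dotted line is 50%. At P14 the bar of Pdgfra ends at 25.56% and that of Mog starts at 62.88%, while the bar of Mobp runs up to 97.44%.

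At P21 against P14 Pdgfra fell a further 2.65-fold. That step rests on low values, and it was 0 with a floor at the 10th percentile and 0.20 (log2) with quantile normalization. At P56 against P21 it was the 1 gene of the 10 that rose by 2-fold or more, to 16.76% at P56 against 4.82% at P21 (3.48-fold), where 2.68% of all probes rose. This was the 7th largest rise of 897 probes, and it was 1.31 (log2) with quantile normalization in place of 1.80, but 0 with the floor at the 10th percentile. The change of 11.94 points does not force both experiments to agree in direction.

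The 3 named genes whose profiles were most like that of Pdgfra all act in DNA replication. Cdc45, a factor of the replicative helicase, differed from it by a root mean square of 4.64 points over the 5 ages, Mcm10, a replication initiation factor, by 4.77 and Prim1, the primase subunit gene, by 5.73. All 3 were at 100% at P7. At P56 Pdgfra stood at 16.76%, Cdc45 at 10.19%, Mcm10 at 9.89% and Prim1 at 25.63%. Over all pairs of probes the median of this measure was 30.9 points. The 3 genes were picked as the closest, so distances under that median are built in. The 3 genes closest to Car2 lay as near to it, at 4.20 to 5.09 points.

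Pdgfra is also made by fibroblasts of the meninges, and genes of these cells moved in the same interval. Of 14 listed meningeal genes 8 had a probe, and 6 of the 8 were lower by 2-fold or more at P14 than at P7, against 24.7% of all probes. The summed percentages of the 8 were 261.6 at P14 and 570.2 at P7, and their lowest values 23.0% and 31.35%, so none was at 0. Such sums weigh each probe alike, whatever its level, and do not measure an amount of RNA. At P7 against E18 0 of the 8 changed by 2-fold, with sums of 570.2 at P7 and 754.9 at E18, and Pdgfra, 1.58-fold higher at P7, did not pass 2-fold either. Lower by 2-fold or more at P56 than at E18 were 6 of the 8. Nid1, a basement membrane gene, Serpinh1, the collagen chaperone gene, and Col3a1, a collagen gene, had the largest falls (7.90-fold, 7.33-fold and 6.63-fold). Ptgds, 1.67-fold higher at P56, and Slc6a13, 1.88-fold lower, stayed within 2-fold. In that comparison 52.5% of all probes fell. The part of meningeal cells in the Pdgfra result was not tested. Of 4 endothelial and pericyte genes Col4a1 was the 1 that fell at P14 against P7, while Col4a2, Kdr and Pltp stayed within 2-fold.

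Cd9 encodes a tetraspanin membrane protein of myelin and of many other cells. It stood at 37.06% at E18, 100% at P7, 68.26% at P14, 28.13% at P21 and 29.97% at P56. It rose 2.70-fold at P7 against E18, by 62.94 points, so both experiments moved up on the reading above, as for 1.34% of all probes. It was 1 of 12 probes (1.34%) that peaked at P7 after a rise of 2-fold or more. The others with a single symbol were Gfap and Aqp4, genes of astrocytes, and Ccnd2, Cdk5rap3, Nfia, Nfix, Ramp1, Sfrp1, Slc29a1 and Slc44a1. Of 6 astrocyte genes with a probe 5 rose in that step, where 5.80% of all probes did, with summed percentages of 287.8 at P7 and 46.71 at E18 and none at 0. The other 4 of the 6 peaked later, Agt at P14, Atp1b2 at P21 and Ntsr2 and S100b at P56, and the sums of the 6 were 352.6 at P14, 413.5 at P21 and 459.1 at P56. Their part in the Cd9 result was not tested. At P21 against P14 Cd9 fell 2.43-fold, but its difference was -0.88 (log2), within 2-fold, with columns divided by their medians. Its profile differed from that of Mog by 52.8 points and from that of Pdgfra by 30.0, so it followed neither closely.

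At P21 against P14 the sheath genes other than Mobp no longer changed by 2-fold. Of the 10 genes 2 rose, Mobp and Apod, against 3.23% of all probes, and 2 fell, Cd9 and Pdgfra, against 13.2%. Over all probes 29 were higher and 118 lower, but 61 and 51 with columns divided by their medians and 57 and 40 with quantile normalization. Mobp was 2.05-fold higher at P21, by 51.28 points where 2.01% of all probes passed 50, and 0.88 (log2) with quantile normalization, which is under 2-fold. Mog was 1.03-fold, Mag 1.14-fold and Cldn11 1.09-fold higher at P21, and Gsn 1.23-fold lower.

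Between P21 and P56 the shapes parted, though no member of the sheath group passed 2-fold. The directions are partly built in, since the genes were grouped by their highest age. A gene highest at P21 must be lower at P56, and a gene highest at P56 must be lower at P21. Lower by 2-fold or more at P56 were 0 of the 10 genes, against 2.23% of all probes. At P56 Mobp stood at 60.4% of its P21 value, Mag at 62.2%, Cldn11 at 56.2%, Mog at 55.5% and Gsn at 53.2%. Car2 stood at 136.6% of its P21 value, Qdpr at 145.5% and Apod at 128.5%, and the median probe at 101.9%. Between 23 and 57 of the 897 probes had a lower P56 against P21 difference than each of the 5 sheath genes. For Mobp both experiments were at their peak at P21 and for Car2, Qdpr and Apod at P56, which fixes the direction for these 4 on the reading above; for the others the means alone do not.

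Car2 encodes carbonic anhydrase 2, an enzyme abundant in oligodendrocytes and also found in choroid plexus and red blood cells. It stood at 19.78% at E18, 20.89% at P7, 50.77% at P14, 73.21% at P21 and 100% at P56. Its rise was 5.06-fold at P56 against E18 and began after P7. The genes most like it in profile were Ankrd40 (4.20 points), Gjb6, a connexin gene of astrocytes (4.39 points), and Tiam1, a Rac activator gene (5.09 points). Of the other sources, the 2 choroid plexus genes with a probe, Igfbp2 and Ttr, were at 27.65% and 62.91% at P56 and both at 100% at E18. Of 5 genes on the red blood cell list 1 had a probe, Ank1, at 100% at P56 and 15.95% at E18. The globin genes of that list had none, so the level of blood cannot be read from it. The part of choroid plexus and red blood cells in the Car2 result was not tested.

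Qdpr encodes quinoid dihydropteridine reductase, which recycles tetrahydrobiopterin. It stood at 40.06% at E18, 58.27% at P7, 52.35% at P14, 68.72% at P21 and 100% at P56. It changed by less than 2-fold at every step between neighbouring ages and rose 2.50-fold at P56 against E18. Its span was the smallest of the 10, and 656 of the 897 probes had a wider one. Pltp, a phospholipid transfer protein gene, Pip4k2a, a phosphoinositide kinase gene, and Rab11fip5, a gene of membrane recycling, were most like it, at 6.27, 6.55 and 8.99 points.

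Apod encodes apolipoprotein D, a lipocalin that carries small lipids and is made in the brain by oligodendrocytes, astrocytes and cells around vessels. It stood at 63.86% at E18, 25.67% at P7, 38.62% at P14, 77.8% at P21 and 100% at P56. It fell 2.49-fold at P7 against E18, a step in which 8 of the 897 probes fell further, and was 2.01-fold higher at P21 than at P14. At P56 it was 1.57-fold higher than at E18, which did not pass 2-fold as deposited. It did with columns divided by their medians (1.66, log2) and with quantile normalization (1.01). As deposited, 7 probes (0.780%), Apod among them, were lower by 2-fold at P7 than at E18 and higher by 2-fold at P21 than at P7. That count depends on the threshold. Ptgds and Ndrg1 were 1.91-fold and 1.87-fold lower at P7 than at E18 and were not counted.

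The genes most like Apod in profile were Ptgds, a prostaglandin D synthase gene of meninges and oligodendrocytes, Nrsn1, a neuronal membrane protein gene, and Ndrg1, which Schwann cells and oligodendrocytes make. They differed from it by 5.84, 8.93 and 9.47 points. Ptgds stood at 59.9% at E18, 31.35% at P7, 32.91% at P14, 68.32% at P21 and 100% at P56. Ndrg1 stood at 44.55%, 23.8%, 36.19%, 69.65% and 100% at the same ages. The other 7 meningeal genes with a probe were not highest at P56, and the part of those cells in the Apod result was not tested.

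**Figure D4:**
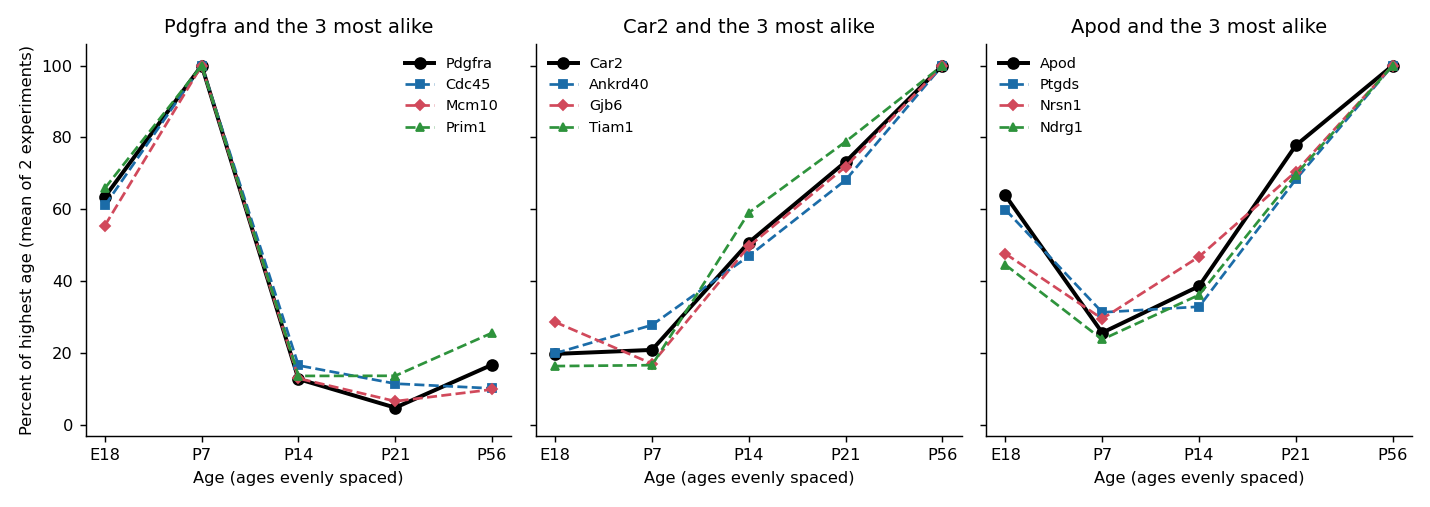
Percent of the highest age (y axis, mean of 2 experiments) over 5 evenly spaced ages for Pdgfra, Car2 and Apod (black) and the 3 named genes closest to each (dashed). Pdgfra and its 3 genes share 100% at P7, and Apod, Ptgds, Nrsn1 and Ndrg1 share a low at P7 or near it and 100% at P56.

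Among the sheath genes Mog, Mag, Cldn11 and Gsn lay closer to each other than to Mobp. Mog and Mag differed by 5.97 points, Mag and Cldn11 by 7.50, Cldn11 and Gsn by 9.40, Mog and Cldn11 by 9.71, Mog and Gsn by 10.2 and Mag and Gsn by 12.1, where 5% of all pairs of probes lay within 8.70 points. The 3 named genes closest to Mog over the whole table were Mag, Cldn11 and Gsn, and those closest to Mag were Mog, Cldn11 and Bmp1, a procollagen protease gene (8.30 points). Mobp lay 14.7 points from Mag, 17.4 from Mog, 18.8 from Cldn11 and 25.5 from Gsn. The genes closest to Mobp were not members but Atp2a3, a calcium pump gene of Purkinje cells (11.9 points), Atp1b2, a sodium pump subunit gene of glia (13.1 points), and Gabrd (13.7 points). From Pdgfra the sheath genes lay 65.5 to 71.1 points away.

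Over the whole span, at P56 against E18, 7 of the 10 genes rose, against 22.6% of all probes, and Pdgfra fell, against 52.5%. Over all probes 203 were higher and 471 lower, but 272 and 147 with columns divided by their medians and 247 and 206 with quantile normalization, and 8 of the 10 genes rose under each. The rises were 55.9-fold for Mobp, at least 54.7-fold for Mag and at least 46.8-fold for Mog, and 2.50-fold to 5.06-fold for Car2, Gsn, Cldn11 and Qdpr. The median of the 10 was 1.89 (log2), and that of all probes -1.07. For Mobp, Mag, Car2 and Qdpr the means lay over 50 points apart, against 18.7% of all probes upwards. Pdgfra fell 3.79-fold, but its difference was -0.91 (log2), under 2-fold, with columns divided by their medians, a scaling that moves the median of all probes to -0.06. Gsn, at 40.1% at P56 and 10.32% at E18, was 0.98 (log2) higher with the floor at the 10th percentile, which is under 2-fold.

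Of 18 other listed genes of progenitors and differentiation, Fyn, a kinase gene that acts in myelination, was the 1 matched to a named probe. It stood at 82.2% at E18, 88.42% at P7, 93.9% at P14, 49.37% at P21 and 45.19% at P56 and passed 2-fold at no step. Of 38 other listed myelin genes Ndrg1 was the 1 matched, and it rose 2.24-fold at P56 against E18.

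On the axon side of the node of Ranvier, where myelin segments meet, 4 of 17 listed genes were matched, and 3 of these rose at P56 against E18 and 1 fell. Over all probes 22.6% rose and 52.5% fell. Kcna1, a potassium channel gene of the region beside the node, was at least 100-fold higher and Scn1a, a sodium channel gene, 9.79-fold higher. Nefh, the heavy neurofilament gene, rose 6.20-fold and Nefm, the medium one, fell 3.06-fold. Kcna1, Scn1a and Nefh were at 100% at P56, unlike the 5 sheath genes. Between P21 and P56 they were 1.11-fold, 1.58-fold and 1.71-fold higher at P56, within 2-fold.

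Of 18 listed genes of cholesterol synthesis and its control, a pathway that supplies a main lipid of myelin, 5 were matched. At P56 against E18 4 of them fell, against 52.5% of all probes, and 0 rose, against 22.6%. Their median was -1.18 (log2), near the median of -1.07 for all probes. Idi1 stood at 82.2% at P14 and 95.98% at P7, Sqle at 74.26% and 82.92%, Fdps at 54.59% and 80.59% and Fdft1 at 51.46% and 82.44%, all within 2-fold in the interval in which Mog and Mag rose. Srebf1, a regulator gene of lipid synthesis, was at 100% at P7 and 2.80-fold lower at P14.

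As a check of the tissue, genes of other cerebellar cells were read in the same columns. Of 4 granule cell genes Gabra6, Gabrd and Etv1 rose at P56 against E18 and Neurod1 stayed within 2-fold, and the 3 Purkinje cell genes Calb1, Pcp2 and Pvalb rose. In that comparison 22.6% of all probes rose. In the step at P14 against P7, in which 6 of the 10 oligodendrocyte and myelin genes rose, 3 of the 4 granule cell genes and 2 of the 3 Purkinje cell genes rose too, against 14.4% of all probes. Of 5 oligodendrocyte lineage markers with a probe, all of them members, 4 rose in that step and Pdgfra fell. Of the 2 microglial genes neither Ctss nor Laptm5 changed by 2-fold in it.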

How the data were processed

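Arrays of total RNA from mouse cerebellum gave 1 column for each of 5 ages. Per the labels, the authors deposited the mean signal of 2 array experiments; the values were read as percent of each probe's highest age, and the sources used here do not give the authors' scaling, background correction, normalization or choice of probes. Gene symbols came from the platform annotation (787 probes with 1, 16 with several, 94 with none), and all 10 genes were found by gene identifier in the RefSeq gene table (GRCm38.p6), and 9 in its promoter table. Ages were compared on the log2 scale, with a floor of 1% (20 values in 15 probes lie under it) and a 2-fold threshold. Nothing was tested, for want of replicates. All 10 genes were named; for 7 of them the 3 closest profiles were named, and lists with 6 or fewer measured genes were named in full, longer ones by their 3 largest changes. Members and lists were chosen with earlier results of these data known. Calculations used Python 3.11.15 with numpy 2.4.6 and pandas 2.3.3 and were tested on simulated data.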

Additional observations from a re-analysis of the deposited data

How the results depend on the processing

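The alternatives were no floor, a floor set at the 10th percentile (20.4%), thresholds of 1.5-fold and 3-fold, columns divided by their medians and quantile normalization. Of 60 counts of genes recomputed, 49 stayed within 1.5 times. With the 10th percentile floor 1 gene was higher at P7 than at E18 in place of 4, 1 was lower at P21 than at P14 in place of 2, and 0 were higher at P56 than at P21 in place of 1. At 3-fold 0 were lower at P7 than at E18 (1 before), and at P21 against P14 0 rose and 0 fell (2 and 2 before). At 1.5-fold 5 genes were lower at P56 than at P21, Mobp, Mog, Mag, Cldn11 and Gsn, against 8.70% of all probes. With columns divided by their medians 1 was lower at P21 against P14 and 0 at P56 against E18 (2 and 1 before); with quantile normalization 1 rose and 1 fell at P21 against P14. Of 300 differences of single genes 258 kept sign and side of the threshold, 17 dropped under it, 14 passed it, and 8 that were within 2-fold changed sign and stayed within it, under columns divided by their medians or quantile normalization (Cd9 3 times, Qdpr 2 times, Gsn, Car2 and Cldn11). Of the differences past 2-fold 3 reversed, all with quantile normalization: Mobp (-0.77) and Mog (-0.25) at P7 against E18 and Pdgfra (0.20) at P21 against P14. The cause was not tested. The 1.5-fold and 3-fold thresholds leave each difference as it is, so no sign could turn under them. Leaving out the floor alters only differences that use a value under 1%. Dividing by medians moved the highest age of Gsn to P21 and of Cd9 to P14. No paired analysis was possible because each age has 1 column. The number of arrays limits every value, and low percentages carry an unknown background.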
